A study of Mus musculus with 2 samples.

Results

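Blood formation in the mouse yolk sac is run by a small set of transcription factors, and 10 of them are described here: Gata1, Gata2, Tal1, Lmo2, Klf1, Runx1, Myb, Spi1, Ikzf1 and Gfi1b. They were chosen by symbol, as a named list and not by a threshold on measured values, and they are 10 of the 30970 gene rows of the count matrices. Whole yolk sacs of mouse embryos at E8.75 were taken apart into single cells, marked with oligonucleotide tags, pooled and sequenced as 1 droplet library. The study set out to compare yolk sac cell types that bear cilia with visceral endoderm, which lacks them. Per the series' design text, 3 yolk sacs of 3 embryos were used; the counts come as 3 tagged samples (Ctrl1, Ctrl2 and Ctrl3), called tagged samples 1, 2 and 3 and taken as 1 yolk sac each. Every cell group described below shares the genotype Ttr-Cre/+; R26lsl-rtTA-EGFP/+, in which Cre under Ttr sequences, active in visceral endoderm, switches on a transactivator and a green fluorescent protein from the Rosa26 locus. There is no second genotype or treatment, and p-values measure the spread between the 3 tagged samples.

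The blood islands of the yolk sac make the first red cells of the embryo, and vessel-lining cells arise from the same mesoderm. TAL1 and LMO2 act there as parts of 1 DNA-bound complex with a GATA factor; GATA2 is typical of endothelium and early progenitors, and GATA1 takes over its sites as red cells form. RUNX1 is needed for blood cells to leave endothelium, MYB for progenitors of later waves, and SPI1 (PU.1) drives white cell fates and opposes GATA1.

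Cells were grouped by genes outside the set. All had at least 500 genes, at most 10% mitochondrial UMIs (unique molecular identifiers, counts of single RNA molecules) and, for the 4 blood and vessel groups, under 0.3% of UMIs from the endoderm genes Ttr, Apob and Apom. Endothelium (118 cells; 36, 39 and 43 in tagged samples 1, 2 and 3) had 0.04% or more of its UMIs from Cdh5, Ctla2a and Plvap, and globins under 3%. The group called progenitor by the rule (81 cells; 24, 18 and 39) had 3 or more UMIs of Fermt3, Plek and Rab27b, globins under 3% and at most 1 Cdh5 UMI. Erythroid cells were split into lower-globin cells, with 3 to 7% globin UMIs (262 cells; 64, 68 and 130), and higher-globin cells, with 7% or more (382 cells; 22, 146 and 214). A mesoderm reference of 175 cells and a visceral endoderm reference of 435 cells gave the level in cells of other kinds.

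Of 1817 cells, 1740 were kept, 843 of them in the 4 groups, and no cell barcode occurred in more than 1 tagged sample. Gene UMIs per tagged sample ranged from 22007477 to 33114758. Endothelial markers outside the gate (Pecam1, Kdr and 6 others) summed to 1458 to 1510 CPM in endothelium (UMIs in each 1000000 gene UMIs of a tagged sample's group) and to at most 153.7 in the 3 blood groups. The progenitor label was met only in part. Its 7 markers (Pf4, Itga2b, Kit and Cd34 among them) summed to 56.9 to 191.3 CPM, below the 242.8 to 333.9 of endothelium, while erythroid markers (7 genes, Alas2 and Slc4a1 among them) already summed to 203.9 to 272.3 against 25.52 to 89.05 in endothelium. The median globin share of these cells was 1.31%. They are therefore called Fermt3/Plek/Rab27b cells from here on. Endoderm markers, a sign of RNA free in the droplets, summed to 368 to 787.1 CPM in all 5 groups outside endoderm, against 25180 or more in endoderm.

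RefSeq promoter windows (GRCm38.p6; 250 bases before to 50 after a start) were at hand for 8 of the 10 genes, 12 windows in all. A GATA motif, the letters GATA with A or T before them and A or G after them, searched on both strands, occurred in 3 of those windows, and in 29.8% of 32841 mouse promoter windows of the same length. Those 3 belong to Tal1, Klf1 and Gfi1b, which stood higher in Fermt3/Plek/Rab27b cells than in endothelium. Gata1, Runx1, Myb and Ikzf1 also stood higher and had no match, and Gata2, which stood lower, had none either. No link between a match and a direction is read from this. The 3 windows are shown 5′ to 3′ on the gene's strand, ending 61 bases before the start, with the match in capitals. Tal1 is read from chr4:115056176-115056365 (plus strand), Klf1 from chr8:84901732-84901921 (plus strand) and Gfi1b from chr2:28622043-28622232 (minus strand); none of these stretches overlaps an annotated exon.
Tal1: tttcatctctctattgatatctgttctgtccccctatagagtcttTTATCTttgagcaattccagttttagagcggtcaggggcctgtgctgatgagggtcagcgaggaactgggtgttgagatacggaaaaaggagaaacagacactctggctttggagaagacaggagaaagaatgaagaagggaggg
Klf1: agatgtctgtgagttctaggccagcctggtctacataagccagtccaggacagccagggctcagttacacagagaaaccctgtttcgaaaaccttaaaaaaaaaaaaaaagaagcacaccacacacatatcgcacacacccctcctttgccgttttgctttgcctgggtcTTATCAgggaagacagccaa
Gfi1b: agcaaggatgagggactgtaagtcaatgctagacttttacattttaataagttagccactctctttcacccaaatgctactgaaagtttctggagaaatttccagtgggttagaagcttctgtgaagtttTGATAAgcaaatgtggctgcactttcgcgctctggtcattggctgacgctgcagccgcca
The match starts 205 bases before the start in Tal1, 80 in Klf1 and 120 in Gfi1b. A match is a string of letters and not a measured binding site.

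Vessel-lining cells were first set against Fermt3/Plek/Rab27b cells. Of the 10 factors, 8 were higher in Fermt3/Plek/Rab27b cells (Gata1, Klf1, Ikzf1, Myb, Gfi1b, Runx1, Tal1 and Lmo2) and 2 were lower (Gata2 and Spi1), by edgeR on UMI counts summed per tagged sample. Among all 7915 genes tested, 22.7% were higher and 26.6% lower, so a called gene was common in this comparison. Genes under edgeR's count filter (filterByExpr) are not tested. Gata1, Klf1, Ikzf1, Myb and Gfi1b needed their Fermt3/Plek/Rab27b reads to pass it, and Gata2 and Spi1 their endothelial reads. A gene that passed this way was bound to lean that way, so the counts of 8 and 2 are no support for a direction. Tal1, Lmo2 and Runx1 had reads enough in both groups. Differences below are on the log2 scale after TMM scaling, which aligns the bulk of genes, while levels are CPM, given for tagged samples 1, 2 and 3 in that order.

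**Figure D1:**
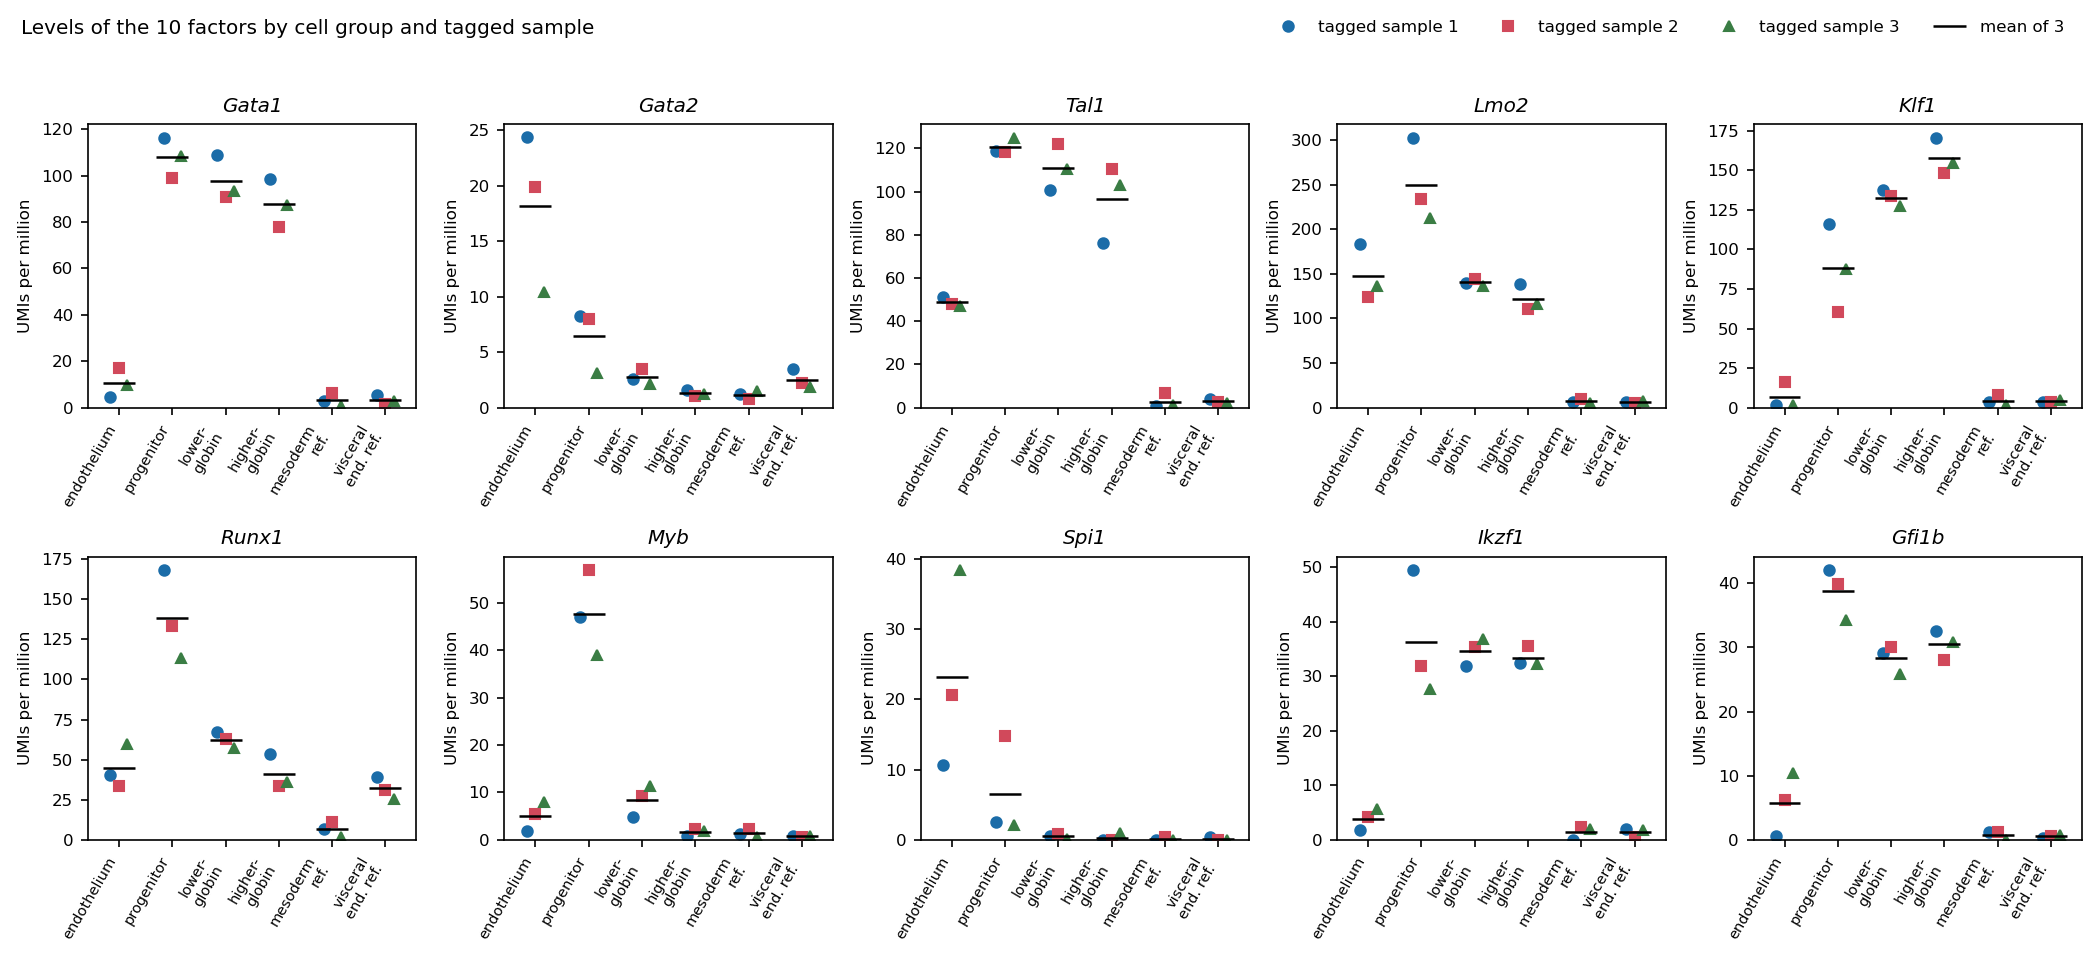
Levels of the 10 factors (y axes, CPM, each from 0) in the 6 cell groups (x axes; progenitor marks the Fermt3/Plek/Rab27b cells); points are the 3 tagged samples and lines their mean. Gata1 lay between 4.75 and 17.1 in endothelium and between 77.8 and 116.3 in the 3 blood groups, while the mean of Gata2 and of Spi1 was highest in endothelium.

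Gata1 (chrX:7959260-7978071, GENCODE M21 on GRCm38), the X-linked factor that erythroid cells need to mature, measured 4.75, 17.1 and 9.59 CPM in endothelium and 116.3, 99.1 and 108.3 in Fermt3/Plek/Rab27b cells. The ranges did not overlap, and the log2 difference was 3.42 ± 0.28 (SE; edgeR adjusted p = 9.9e-07). Its paralog Gata2 (chr6:88193891-88207032) went the other way, from 24.3, 19.9 and 10.4 in endothelium to 8.25, 7.97 and 3.12, again with no overlap; the log2 difference was -1.61 ± 0.43 (edgeR adjusted p = 0.00777). In all 3 tagged samples Gata1 was higher and Gata2 lower in the same contrast.

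Tal1 (chr4:115056426-115071755), the basic helix-loop-helix partner of the complex, was already present in endothelium at 51.0, 47.9 and 47.1 CPM. It reached 118.7, 118.4 and 124.9 in Fermt3/Plek/Rab27b cells, a log2 difference of 1.34 ± 0.13 (edgeR adjusted p = 4.49e-06). Lmo2 (chr2:103957986-103981878), the bridging protein that binds no DNA itself, moved least of the 8, from 183.4, 124.0 and 135.8 to 302.6, 233.5 and 212.4, with a log2 difference of 0.78 ± 0.17 (edgeR adjusted p = 0.002). Both were thus measured in vessel-lining and blood cells alike, and for both the 2 groups did not overlap.

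Klf1 (chr8:84901928-84905291), the activator of globin and red cell membrane genes, read 1.78, 16.4 and 1.60 CPM in endothelium against 116.3, 60.4 and 87.5, a log2 difference of 3.77 ± 0.48 (edgeR adjusted p = 4.09e-05). Tagged sample 2 stands out in endothelium for Klf1 and Gata1, and it also had the most RNA of erythroid markers there, 89.05 CPM against 25.52 and 40.74. Without tagged sample 2 the log2 difference was 5.85 for Klf1 and 4.03 for Gata1. Leaving out the 12 endothelial cells with 1% or more globin UMIs, 8 of them in tagged sample 2, gave 4.28 and 4.0 (a setting chosen after the data were seen). What share of the Gata1 and Klf1 reads in endothelium comes from red cell RNA was not tested beyond this.

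Runx1 (chr16:92601466-92826149) measured 40.4, 33.6 and 59.9 CPM in endothelium and 168.2, 133.2 and 113.5 in Fermt3/Plek/Rab27b cells, its highest level in any group (log2 difference 1.68 ± 0.21, edgeR adjusted p = 4e-05). Myb (chr10:21124935-21160984) rose from 1.78, 5.48 and 7.99 to 47.0, 56.9 and 39.0, a log2 difference of 3.29 ± 0.35 (edgeR adjusted p = 9.27e-06). Ikzf1 (chr11:11685003-11772926), the zinc-finger factor Ikaros best known from lymphoid cells, rose from 1.78, 4.11 and 5.59 to 49.5, 31.9 and 27.6 (log2 difference 3.30 ± 0.39, edgeR adjusted p = 2.14e-05). Gfi1b (chr2:28609450-28621982), a repressor needed for red cells and platelets, rose from 0.594, 6.16 and 10.4 to 42.1, 39.9 and 34.4 (log2 difference 2.87 ± 0.44, edgeR adjusted p = 0.000182). Leaving out tagged sample 1 lowered the log2 difference to 2.61 for Ikzf1, 2.17 for Gfi1b and 3.02 for Klf1, and leaving out tagged sample 3 raised it to 3.88 for Myb and 3.68 for Gfi1b; all stayed past the threshold. For Runx1, Myb, Ikzf1 and Gfi1b every Fermt3/Plek/Rab27b value lay above every endothelial value.

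Spi1 (chr2:91082390-91115756) was uneven between tagged samples. It measured 10.7, 20.5 and 38.3 CPM in endothelium and 2.47, 14.8 and 2.08 in Fermt3/Plek/Rab27b cells, lower in each tagged sample although the ranges overlapped (log2 difference -2.05 ± 0.63, edgeR adjusted p = 0.0169). Leaving out tagged sample 3 ended the call (log2 difference -0.92, edgeR adjusted p = 0.31), and leaving out tagged sample 2 widened the difference to -3.33. The 14.8 of tagged sample 2 came with macrophage markers at 30.75 CPM against 0.825 and 2.60 in the others, and with most of the Pf4 of this group (77.4 against 6.60 and 11.5). Only 20 Spi1 UMIs were counted in the 81 cells, 17 of them in 5 cells, and the part of white cell precursors in this value was not tested.

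**Figure D2:**
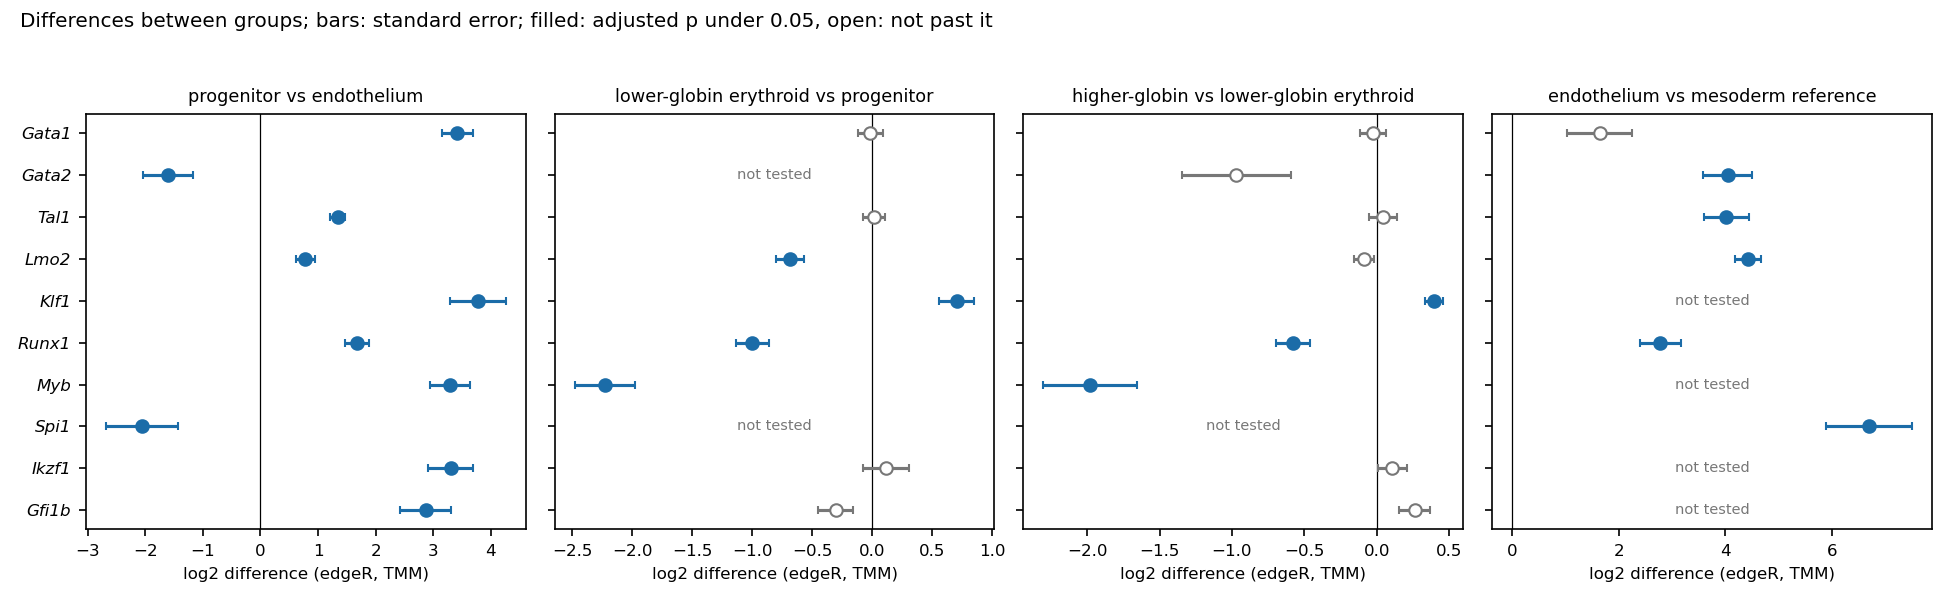
Log2 differences (x axes) of the 10 factors in 4 comparisons, with the first-named group minus the other; bars are standard errors, filled points passed an edgeR adjusted p of 0.05 and open points did not. All 10 were called between Fermt3/Plek/Rab27b cells (labelled progenitor) and endothelium, 4 in the next comparison and 3 between the erythroid groups. Of all genes tested 22.7% were higher and 26.6% lower, then 3.29% and 2.84%, then 5.43% and 6.05%. Factors that passed the count filter only through the group where they are high were bound to lean that way. The counts are therefore no support for a direction.

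Endothelium was then set against the mesoderm reference, cells with 3 or more UMIs of Pdgfra, Col3a1 and Foxf1 that are neither vessel nor blood. Gata2, Tal1, Lmo2, Runx1 and Spi1 were higher in endothelium, 5 of the 6 factors tested; of all 8811 genes tested 18.8% were higher and 16.8% lower. Genes under the count filter (edgeR's filterByExpr) are not tested, which left out Klf1, Myb, Ikzf1 and Gfi1b. All 5 called factors needed their endothelial reads to pass it, and a gene that passed this way was bound to lean that way. The count of 5 is therefore no support for a direction.

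In mesoderm cells Gata2 stood at 1.21, 0.779 and 1.53 CPM, so that endothelium was higher by 4.05 ± 0.46 on the log2 scale (edgeR adjusted p = 2.56e-05). The mesoderm values of Tal1 were 0.606, 6.62 and 1.02, and those of Lmo2 6.06, 10.1 and 5.11. Their log2 differences were 4.01 ± 0.42 and 4.42 ± 0.24 (edgeR adjusted p = 1.39e-05 and 7.52e-08). Runx1 stood at 6.67, 10.9 and 2.04 in mesoderm, 2.78 ± 0.39 below endothelium on the log2 scale (edgeR adjusted p = 0.000144). Without tagged sample 2 the log2 differences of Tal1 and Runx1 were 5.88 and 3.66, and without tagged sample 3 that of Runx1 was 2.11, all still called. In each case the lowest endothelial value exceeded the highest mesodermal one.

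For Spi1, 96 UMIs in endothelium faced 1 UMI in the mesoderm reference, a ratio of 134.8 per UMI of depth with an exact 95% counting interval from 23.6 to 5380. The fit called it (edgeR adjusted p = 4.52e-05, at most 0.00183 when 1 tagged sample was left out), but its fold against 1 UMI depends on the prior count. Gata1 did not pass the threshold (log2 difference 1.64 ± 0.61, edgeR adjusted p = 0.0549) and its groups overlapped. It did pass with the tagged sample as a block (1.77, edgeR adjusted p = 0.0114) and without tagged sample 1 (1.95, adjusted p = 0.035), while without endothelial cells of 1% or more globins it was 1.06 (adjusted p = 0.19). Of the 4 factors below the filter, Gfi1b (5.71 against 0.794 CPM on average) and Myb (5.08 against 1.35) had edgeR adjusted p-values from 0.000718 to 0.0575 and from 0.022 to 0.171 in the 4 and 3 alternative settings that tested them.

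Spi1 was unevenly spread over endothelial cells: 33 of 118 cells held its 96 UMIs, and 46 of those lay in 5 cells. Splitting the gate by Spi1 UMIs, a split made after the values were seen and so given without a test, left 15 cells with 2 or more, 3, 5 and 7 in tagged samples 1, 2 and 3. In these 15 cells Runx1 was at 162.8, 100.3 and 218.8 CPM per tagged sample, against 29.9, 16.6 and 5.42 in the 85 cells without Spi1. Myb read 19.5, 25.9 and 31.3 against 0, 0 and 1.35. Pooled over tagged samples, the 18 cells with 1 Spi1 UMI were close to those without it. Over all 18, Runx1 was at 25.8, Myb at 0, Sox17 at 52.7 and endothelial markers at 1547 CPM. The tagged samples, with 9, 2 and 7 of these cells, differed. Sox17 was at 62.4, 133.4 and 4.44 CPM in them, and Runx1 at 24.9, 0 and 35.5. All 15 cells had a Runx1 UMI and 9 had a Myb UMI, compared with 22 and 1 of the 85.

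The same 15 cells carried less RNA of vessel genes. Sox17, an endothelial factor, was at 6.51, 12.9 and 0 CPM against 54.6, 47.1 and 71.8, and the endothelial marker sum over all 15 cells was 780.8 against 1648. Cd34 (197.2 against 166.2) and Gata2 (22.7 against 17.9) differed less. Macrophage markers summed to 24.0 against 3.58, with Tyrobp and Csf1r present (10 and 5 UMIs) and Adgre1, C1qa and Cx3cr1 at 0 in the 15 cells, as was Ptprc, the pan-leukocyte gene. The 15 cells were also deeper, with a median of 46930 UMIs against 27847, so the split favours deep cells; with every cell thinned to 15000 UMIs, 10 of the 16 endothelial cells with a Spi1 UMI and 20 of the 75 without one had Runx1.

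From Fermt3/Plek/Rab27b cells to lower-globin erythroid cells the set divided. Klf1 rose, Lmo2, Runx1 and Myb fell, and Gata1, Tal1, Ikzf1 and Gfi1b did not pass the test. Of all 8425 genes tested 3.29% were higher and 2.84% lower (277 and 239 genes), and scaling by library size alone would give 119 higher and 617 lower, with the median gene at -0.15 on the log2 scale. The median globin share was 1.31% in the first group and 5.17% in the second, and how much of that shift it makes up was not tested. Gata2 and Spi1 fell below the count filter.

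Among the 4 called factors Myb differed most, from 47.0, 56.9 and 39.0 CPM to 4.90, 9.35 and 11.3, a log2 difference of -2.23 ± 0.25 (edgeR adjusted p = 0.000284). Runx1 went to 67.4, 62.8 and 57.1, a log2 difference of -1.0 ± 0.14 (edgeR adjusted p = 0.00111). Lmo2 reached 140.0, 144.6 and 136.3 and had a log2 difference of -0.69 ± 0.11 (edgeR adjusted p = 0.00328). In each of these 3 genes every erythroid value lay below every value of the Fermt3/Plek/Rab27b cells.

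Klf1 came to 137.4, 133.5 and 127.3 CPM, above all 3 values of the preceding group (log2 difference 0.70 ± 0.15, edgeR adjusted p = 0.0131). Its call did not survive leaving out tagged sample 2 (adjusted p = 0.145) or 3 (0.149), nor 1 fit of all groups (0.081); that of Lmo2 was lost without tagged sample 2 (0.0698). The count of calls over all genes itself dropped to 136 and 161 without those samples.

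Gata1 measured 108.9, 90.6 and 93.1 CPM, lower in each tagged sample but overlapping, with a log2 difference of -0.02 with a 95% interval from -0.31 to 0.27 (edgeR adjusted p = 0.973). For Tal1 the difference was 0.01, interval -0.25 to 0.27 (edgeR adjusted p = 0.976), and for Ikzf1 0.11, interval -0.41 to 0.64 (adjusted p = 0.83). Gfi1b was at 29.1, 30.1 and 25.8, below all 3 earlier values, but its log2 difference of -0.30 did not pass (interval -0.71 to 0.10, edgeR adjusted p = 0.297). Intervals use the 4 residual degrees of freedom. Of the 2 untested factors, Gata2 read 2.59, 3.51 and 2.14, and Spi1 0.576, 0.876 and 0.153. The Spi1 UMIs, 20 against 6, give a ratio of 11.2 per UMI of depth, higher in the Fermt3/Plek/Rab27b cells (exact 95% counting interval 4.33 to 34.0). In the 3 settings that tested Spi1 the log2 difference was -3.48 to -3.27 (adjusted p from 0.000219 to 0.0645, edgeR or DESeq2).

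Between lower- and higher-globin erythroid cells 3 factors were called, in the directions of the step before: Klf1 higher, Runx1 and Myb lower. Myb needed its lower-globin reads to pass the count filter, as did Gata2, which was tested and not called. Both were bound to lean lower, so the direction of Myb here is no support for a repeat of the step before. Klf1 and Runx1 had reads enough in both groups. Over all 9131 genes tested 5.43% were higher and 6.05% lower (496 and 552 genes); by library size alone these would be 123 and 1629, with the median gene at -0.17. This comparison rests on few cells in tagged sample 1, which held 22 of the 382 higher-globin cells; higher-globin cells made up 25.6%, 68.2% and 62.2% of the erythroid cells of tagged samples 1, 2 and 3.

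Klf1 reached 170.6, 148.7 and 154.7 CPM, all above the lower-globin cells (log2 difference 0.40 ± 0.06, edgeR adjusted p = 0.000606). Runx1 came down to 53.6, 33.5 and 36.0 (log2 difference -0.58 ± 0.12, edgeR adjusted p = 0.00406), and Myb to 0.813, 2.28 and 1.95 (log2 difference -1.98 ± 0.32, edgeR adjusted p = 0.000747). None of the 3 overlapped. Without tagged sample 3 all 3 calls were lost, at log2 differences of 0.37, -0.59 and -1.62 for Klf1, Runx1 and Myb (edgeR adjusted p = 0.054, 0.0945 and 0.0886), and without tagged sample 2 that of Runx1 was (0.107). The count over all genes fell to 314 and 601 without tagged samples 3 and 2. A fit of all groups together also ended the calls of Klf1 (0.243) and Runx1 (0.142), and thinning the sums to equal depth that of Runx1 (0.291).

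The other factors did not pass between the erythroid groups. Gata2 was lower in each tagged sample without overlap (1.63, 1.08 and 1.21 CPM; log2 difference -0.97 ± 0.38, edgeR adjusted p = 0.124), and passed only when library size alone was used (adjusted p = 0.047). Spi1, with 6 and 10 UMIs, was not tested. Gata1 measured 98.3, 77.8 and 87.3 CPM (log2 difference -0.02, 95% interval -0.27 to 0.22, edgeR adjusted p = 0.921) and Tal1 76.4, 110.4 and 103.3 (0.05, -0.22 to 0.31, 0.849). Ikzf1 read 32.5, 35.5 and 32.2, Gfi1b 32.5, 28.1 and 30.8, and Lmo2 138.9, 110.4 and 115.7, with edgeR adjusted p-values of 0.596, 0.149 and 0.53; Lmo2 was called lower when only library size was used (-0.26, adjusted p = 0.0231). Markers of trophoblast (33.3 to 37.3 against 110.7 to 248.4 CPM) and of mesoderm (6.18 to 7.31 against 39.2 to 82.1) were lower in higher-globin than in lower-globin cells in every tagged sample. Their part in the differences above was not tested.

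Finer steps of globin content are given as a description, since the same cells enter the tests above. Runx1 averaged 75.3 CPM in cells with 3 to 5% globins, 52.0 at 5 to 7%, 43.8 at 7 to 9%, 35.5 at 9 to 11% and 24.7 at 11% or more; it was lower at each step in both tagged samples that span the range. Myb went from 11.3 to 6.43, 3.42, 1.63 and 1.27, and Klf1 from 117.1 to 144.8, 146.5, 153.1 and 156.7. Gata1 ran from 102.9 to 82.1, and Ikzf1 stayed between 32.5 and 36.4. The 3 upper steps rest on tagged samples 2 and 3, because tagged sample 1 had fewer than 20 cells in each. The totals include globin UMIs; with globins left out of the total, mean Gata1 was 109.3, 102.8 and 97.4 in the 3 blood groups, and Ikzf1 36.8, 36.6 and 37.1.

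**Figure D3:**
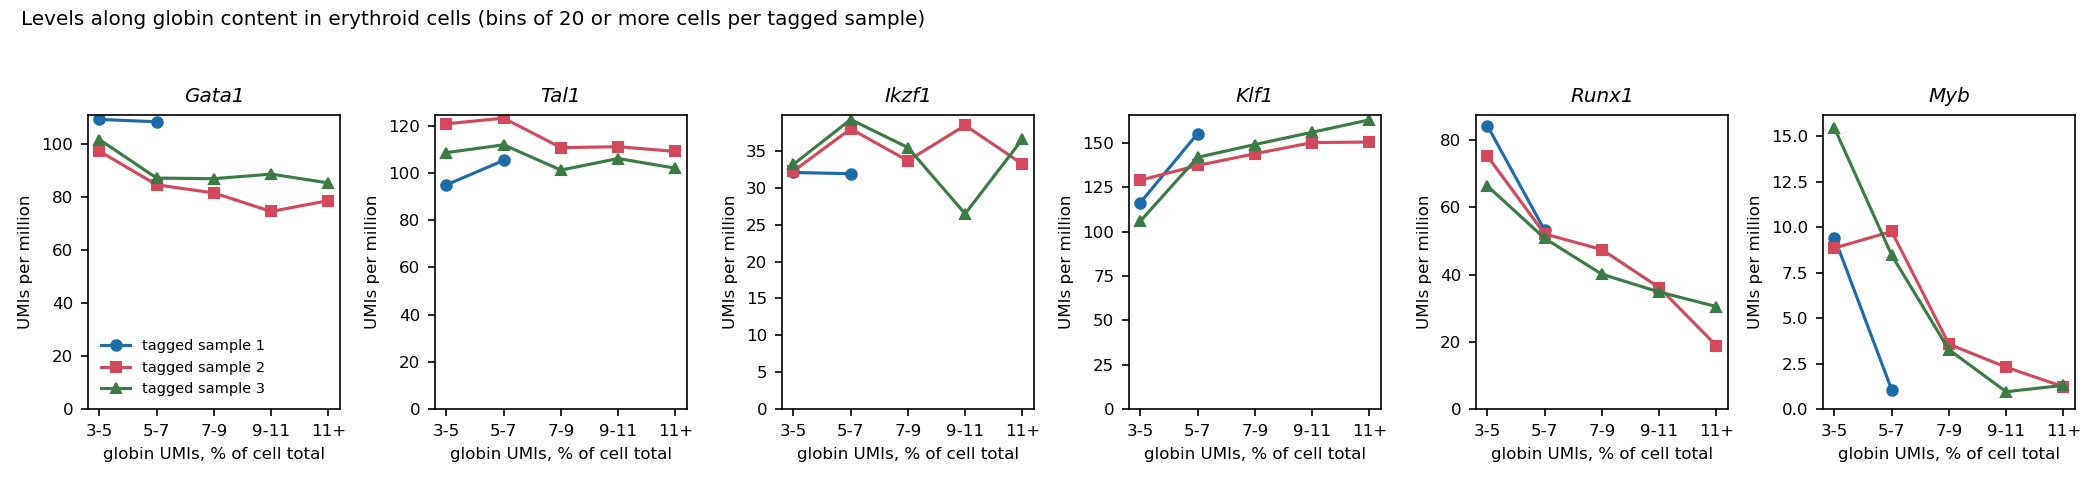
Levels of 6 factors (y axes, CPM, from 0) in erythroid cells by globin share (x axes, % of the cell's UMIs), 1 line per tagged sample; bins under 20 cells are not drawn. Runx1 and Myb decline, Klf1 climbs, while Ikzf1 averages between 32.5 and 36.4.

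The relation of the 2 GATA factors was followed as the ratio of their UMIs within each sum, which does not depend on the total. On the log2 scale, with 0.5 added to each count, it was -2.29, -0.21 and -0.11 in endothelium, where Gata2 exceeded or matched Gata1. It was 3.75, 3.54 and 5.0 in Fermt3/Plek/Rab27b cells, 5.32, 4.63 and 5.40 in lower-globin and 5.60, 6.09 and 6.12 in higher-globin cells. The first step was 4.97 with no overlap (exact permutation test, two-sided p = 0.1, the smallest that 3 against 3 can give). Later steps were 1.02 (exact p = 0.2, overlapping) and 0.82 (exact p = 0.1). The last became 0.75 with 1 added to each count and 0.72 without Scrublet doublet calls, with exact p = 0.2 in both. Adjusted over the 3 steps, none of these can pass 0.05.

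**Figure D4:**
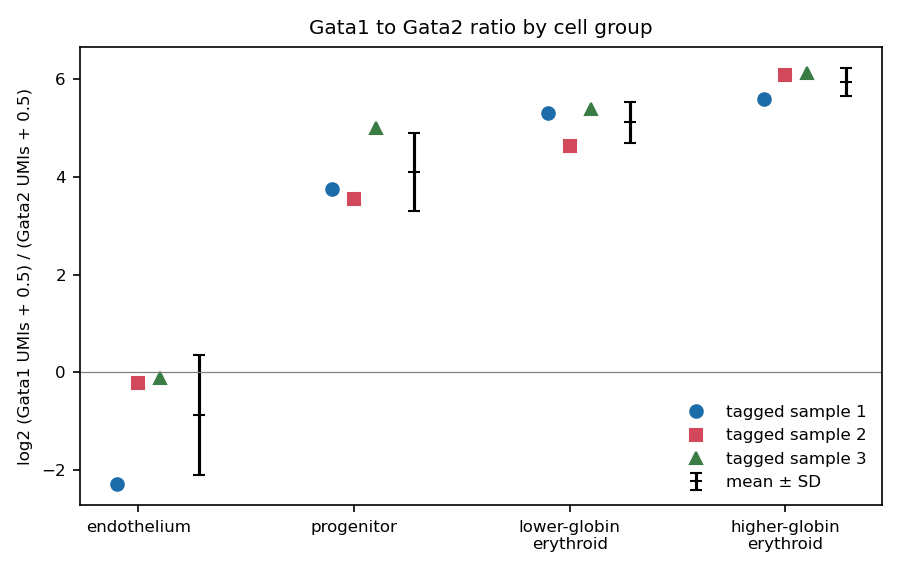
Log2 ratio of Gata1 to Gata2 UMIs (y axis; 0.5 added to each count) in the 4 groups (x axis); points are tagged samples, and the bars at the side are mean ± SD of 3. All 3 endothelial values lie below 0 and all others above 3.5.

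Gata2 was rare in erythroid cells, and its standing depends on the reference. With each cell thinned to 15000 UMIs, 2.35% of lower-globin and 1.58% of higher-globin cells had a Gata2 UMI, against 4.05% of visceral endoderm (exact 95% interval 2.38% to 6.4%) and 2.35% of mesoderm cells (0.645% to 5.92%). At 30000 UMIs the shares were 7.38% and 1.95%, against 7.42% and 4.76%. In CPM lower-globin cells (2.14 to 3.51) overlapped endoderm (1.86 to 3.49) and lay above mesoderm (0.779 to 1.53). Whether these few reads are free RNA was not tested, and the ratios of both erythroid groups rest on them. In endothelium 19.8% of cells had Gata2 (12.2% to 29.4%), and in Fermt3/Plek/Rab27b cells 8.75% (3.59% to 17.2%), the latter overlapping the interval of endoderm. Intervals cover counting error only, and unthinned shares were 43.2%, 21%, 10.7%, 4.71%, 4% and 13.8% in endothelium, the 3 blood groups in order, mesoderm and endoderm, at median depths of 35643, 48279, 47000, 48406.5, 34923 and 57995 UMIs.

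Most blood cells held several of the factors at once. After thinning, the median number of factors with a UMI was 5 of 10 in Fermt3/Plek/Rab27b and lower-globin cells, 4 in higher-globin cells, 2 in endothelium and 0 in both reference groups. At least 6 were found in 45.0%, 24.7% and 17.9% of the 3 blood groups and in 3.30% of endothelial cells. Gata1 was seen in 75.0% of Fermt3/Plek/Rab27b cells and in 74.9% and 70.8% of the erythroid groups, against 8.79% in endothelium and 4.05% in endoderm. Klf1 climbed over the 3 blood groups from 70.0% to 84.3% and 89.2%. In endothelium Klf1 was seen in 2.20% of cells against 5.95% in endoderm and 3.53% in mesoderm, but at 30000 UMIs in 16.4% against 8.70% and 11.1%, so that no order is read from these shares. Runx1 declined from 78.8% to 58.0% and 39.5%, and Myb from 41.2% to 9.80% and 2.63%.

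**Figure D5:**
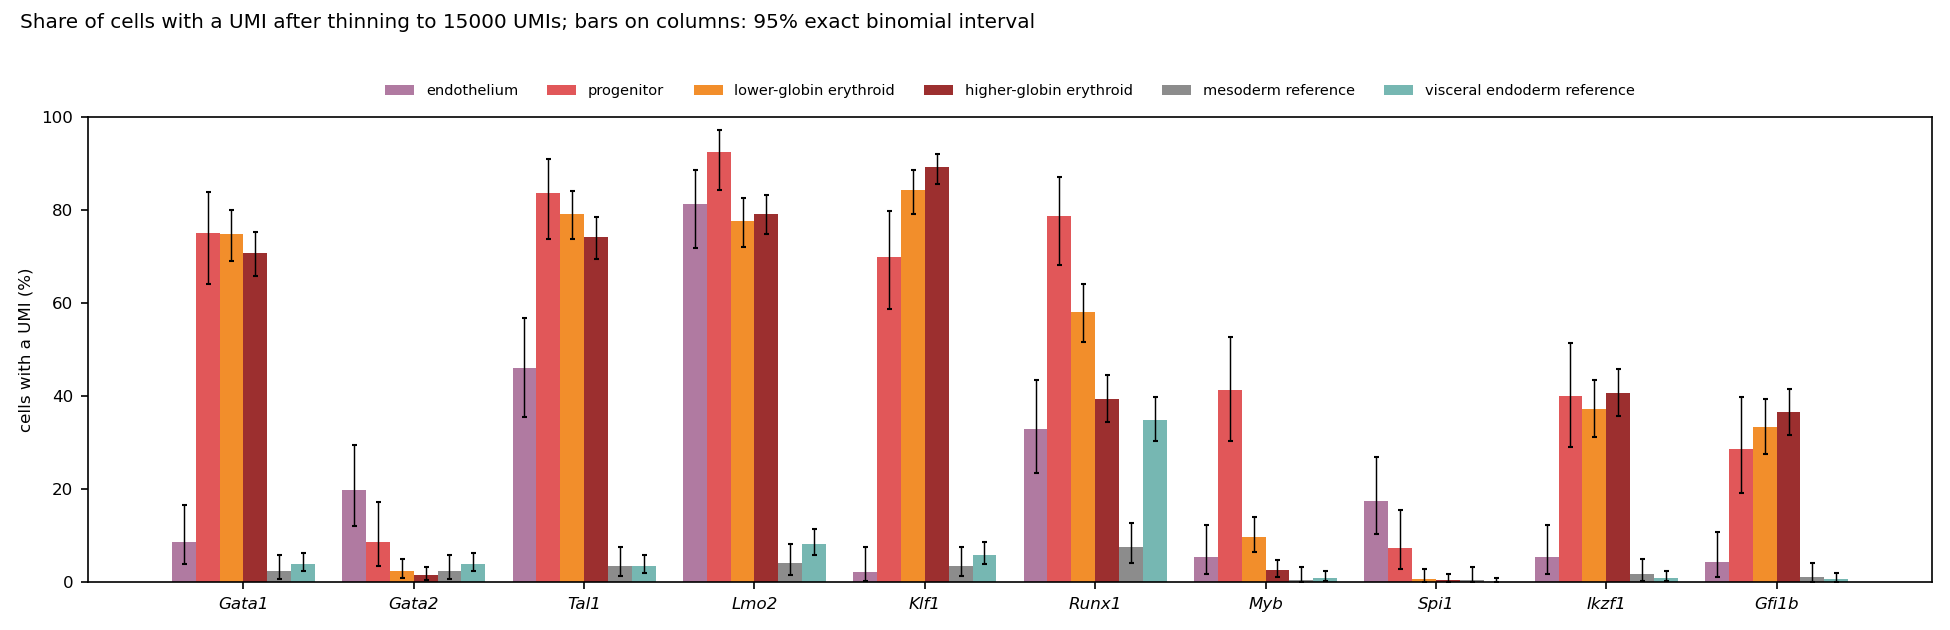
Share of cells with a UMI of each factor (y axis, %) after thinning to 15000 UMIs, by cell group (colours); bars on the columns are exact binomial intervals at 95%. Gata1 is seen in over 70% of all 3 blood groups, Myb in 41.2% of Fermt3/Plek/Rab27b cells and in under 10% elsewhere, and Runx1 in 35.0% of visceral endoderm cells.

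Within Fermt3/Plek/Rab27b cells the progenitor and erythroid factors were found in the same cells. Of the 63 thinned cells with Runx1, 48 also had Gata1 (76.2%), against 12 of the 17 without it (70.6%). Of 33 cells with Myb, 23 had Gata1 (69.7%, against 78.7% of the rest) and 27 had Runx1 (81.8%, against 76.6%). At 30000 UMIs the order for Gata1 turned, with 95.7% of the cells with Myb against 86.2% of the rest. For Spi1 the numbers were small and moved with depth: 2 of its 6 cells had Gata1 and 5 of the 6 had Myb, while at 30000 UMIs 3 of its 4 cells had Gata1. In endothelium 0 of the 16 cells with Spi1 and 8 of the others had Gata1 at 15000 UMIs, 2 and 9 at 30000 UMIs, and 4 of 33 and 18 of 85 without thinning. No separation of Spi1 and Gata1 is read from these counts. Cells of 1 tagged sample share their source, so these counts carry no test.

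Of the 5 members tested between the reference groups, Runx1 alone was called, and it was higher in the visceral endoderm, the absorptive epithelium around the yolk sac. It stood at 39.2, 31.3 and 25.7 CPM there and was seen in 318 of 435 unthinned cells (35.0% after thinning, interval 30.4% to 39.8%). A comparison with the mesoderm reference, added after this was seen, gave a log2 difference of 2.42 ± 0.33 (edgeR adjusted p = 6.53e-05; at most 0.000356 over 4 alternatives), with no overlap; without tagged sample 2 it was 3.15. Of all 10596 genes tested 32.4% were higher and 32.5% lower. Runx1 needed its endoderm reads to pass the count filter, and the comparison was chosen for its level there. The call is therefore no support for a direction. Gata1, Tal1, Lmo2 and Klf1 did not pass (edgeR adjusted p from 0.951 to 0.974), and the other 5 fell below the filter.

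Runx1 was also set against Lmo2 in the same cells. Runx1 UMIs per Lmo2 UMI were 6.68, 5.63 and 3.45 in endoderm, 0.492, 0.382 and 0.385 in the 3 blood groups together and 1.1, 1.08 and 0.4 in mesoderm. The mean levels of Tal1, Klf1 and Gata1 were 2.87, 4.08 and 3.31 CPM in endoderm and 2.75, 4.45 and 3.26 in mesoderm. The part of free RNA in the Runx1 reads of endoderm was not tested. Runx1 levels in endoderm overlapped those of endothelium (33.6 to 59.9) and of higher-globin cells (33.5 to 53.6).

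Partners that bind these factors were listed next. Of 18 complex partners, all tested between Fermt3/Plek/Rab27b cells and endothelium, 6 were higher and 3 lower (median log2 difference 0.22, against 0.02 over all genes). Since 22.7% of all genes were higher and 26.6% lower, these counts do not set the list apart. Zfpm1 (FOG1), the cofactor that GATA1 needs, rose from 55.2 ± 19.5 (SD, n = 3) to 284.2 ± 21.2 CPM (log2 difference 2.37, edgeR adjusted p = 7.48e-07), and Cbfa2t3 (ETO2), a corepressor of the TAL1 complex, from 55.2 to 87.4 (0.68, 0.00176). Cbfb, the obligate partner of RUNX1, fell from 33.1 ± 2.07 to 6.43 ± 3.53 (-2.40, edgeR adjusted p = 4.49e-05) while Runx1 itself rose; Tcf4, an E protein that pairs with TAL1, fell from 113.3 to 38.6 (-1.48, 6.59e-06). In the next 2 steps 1 rose and 1 fell of 17, then 1 fell of 18: Ssbp3 0.42 and Cbfa2t3 -0.45 (edgeR adjusted p = 0.0143 and 0.0321), then Tcf4 -0.48 (0.0134).

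Erythroid genes, many of them known targets of GATA1 and KLF1, were mostly higher at each step. Of 22 listed and 21 present, 16 of 17 tested were higher in Fermt3/Plek/Rab27b cells than in endothelium and 1 was lower (median 2.40, against 0.02 over all genes, of which 22.7% were higher). Some of the 17, such as Nfe2, passed the count filter only through their Fermt3/Plek/Rab27b reads. The count and median at this step are therefore no support for a direction. Nfe2, a red cell and platelet factor, rose from 3.25 ± 2.60 to 46.9 ± 9.74 CPM (3.85, edgeR adjusted p = 4.84e-06), and Tfrc, the transferrin receptor, from 22.4 to 114.9 (2.40, 2.75e-06); Klf3, a repressor of the KLF family, fell from 56.3 to 20.3 (-1.34, 0.00138). At each of the 2 later steps 18 of 21 rose and 0 fell (medians 1.05 and 0.61, against -0.01 over all genes at both). At the first of them Ermap and Rhag needed their lower-globin reads to pass the count filter, so both were bound to lean higher. The groups of both steps were cut by globin share, and the part of that cut in these counts was not tested. Of all genes tested 3.29% and then 5.43% were higher, and 2.84% and 6.05% lower. Slc4a1, the band 3 anion exchanger, went from 6.29 to 55.1 at the first of these (3.29, edgeR adjusted p = 2.6e-05), and Slc25a37, the mitochondrial iron importer, from 119.2 to 378.5 and then 528.9 (1.78 and 0.65, adjusted p = 3.52e-06 and 1.32e-06).

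Other vessel and blood transcription factors were listed as well. Between endothelium and mesoderm 12 of 19 tested were higher in endothelium and 1 lower (median 1.66, against -0.01 over all genes, of which 18.8% were higher and 16.8% lower). Some of the 19 passed the count filter only through their endothelial reads, so the count and median are no support for a direction. The ETS factor Fli1 measured 162.8 ± 34.3 against 3.40 ± 1.37 CPM (log2 difference 5.60, edgeR adjusted p = 1.78e-08). The homeobox factor Hhex read 90.8, 64.4 and 73.5 CPM in endothelium and had 2 UMIs in all mesoderm cells, so its fitted fold depends on the prior count and is not given. In Fermt3/Plek/Rab27b cells 10 of 17 were lower than in endothelium and 2 higher, among them Ikzf2, a relative of Ikzf1 (1.30, edgeR adjusted p = 0.00821). Here too some of the 17 passed the count filter only through endothelial reads, so these counts are no support for a direction. Ets1 fell from 113.6 to 6.01 (-4.20, edgeR adjusted p = 4.46e-08). Sox17 fell from 46.6 to 0.622 (edgeR adjusted p = 2.56e-07). It had 3 UMIs in all Fermt3/Plek/Rab27b cells, so its fitted fold depends on the prior count and is not given. None of 13 rose and 4 fell on to lower-globin cells, among them Fli1 (31.2 ± 16.1 to 2.76 ± 2.36, log2 difference -3.35, edgeR adjusted p = 0.00132). In the last step 3 of 11 fell. Of all genes tested 2.84% and then 6.05% were lower, and 3.29% and 5.43% higher. Fli1 and Etv2 passed the count filter only through Fermt3/Plek/Rab27b reads, and Klf2 in the last step only through lower-globin reads. These counts too are no support for a direction.

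Few platelet and white cell genes reached the filter. Of 15 megakaryocyte genes, 3 were tested between Fermt3/Plek/Rab27b cells and endothelium, and 1 was called: Clec1b, lower at 0.727 against 48.6 CPM (edgeR adjusted p = 3.29e-07). The 0.727 lies under the 0.748 CPM that 3 UMIs give in this group. The fitted fold of Clec1b thus depends on the prior count and is not given. Itga2b (CD41) averaged 40.8 in endothelium, 43.1 in Fermt3/Plek/Rab27b cells and 19.5 in lower-globin cells, the last step being a fall of 1.03 on the log2 scale (edgeR adjusted p = 0.0128). Pf4 fell at that step too (31.8 ± 39.6 to 0.640 ± 0.747; -5.28, edgeR adjusted p = 0.00658), a value that tagged sample 2 dominates. Of the white cell and early progenitor genes 8 were tested against endothelium: Adgrg1 (GPR56) and Csf2rb, a cytokine receptor subunit, were higher (2.22 and 2.5, edgeR adjusted p = 0.000342 and 0.00654), Cd34 and Kit lower (-5.47 and -0.92, edgeR adjusted p = 3.53e-06 and 0.00401). Tagged sample 2 weighs on 2 of these: it held 9 of the 10 Csf2rb UMIs of endothelium (0, 6.16 and 0.799 CPM, against 14.8, 11.4 and 12.5), and 14 of the 15 Cd34 UMIs of Fermt3/Plek/Rab27b cells (0, 15.9 and 0.521 CPM, against 160.9, 157.5 and 218.9). Against endothelium 22.7% of all genes tested were higher and 26.6% lower, so the counts of these 2 lists do not set them apart. Clec1b and Cd34 passed the count filter there only through endothelial reads. Csf2rb passed it only through Fermt3/Plek/Rab27b reads, as did Pf4 at the step to lower-globin cells. The directions of these genes were thus bound by the filter. Kit kept falling in both later steps (-0.97 and -0.89, edgeR adjusted p = 0.0218 and 0.033).

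Genes whose pattern was most like each factor were found by Pearson's r of log2(CPM + 1) over the 12 sums of the 4 groups, among 5597 genes; the sums share tagged samples and totals, and no p is given. Nearest to Gata1 were Slc38a5 (r = 0.996), an amino acid transporter of red cells, Mcrip2 and Nfe2 (both 0.988). Klf1 ran with Abcb10, a mitochondrial transporter used in haem synthesis (0.9900), Icam4, a red cell adhesion molecule (0.9895), and Smim13 (0.9887). Spi1 was nearest to Ostf1 (0.984), and Gata2 to Sfr1 (0.984), Skap1 (0.983) and Dapk1 (0.968). For Myb the leading gene was Gucy1a1 (0.965), for Runx1 Cct3 (0.974), for Tal1 Eif1ad (0.977), for Lmo2 Pnn (0.948), for Ikzf1 Pdcd5 (0.994) and for Gfi1b Tprkb (0.984). None of the listed neighbours was itself one of the 10.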

How the data were processed

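Each of the 3 deposited matrices gives whole-number UMI counts by gene and cell for 1 tagged sample; 6 tag rows were left out. Per the file headers they come from Cell Ranger 6.1.2, and the submitters' processing notes name GRCm38 and mm10. The tag library's own reads were not used here. Counts were summed per tagged sample and group and tested with edgeR 4.0.16 (quasi-likelihood, TMM, filterByExpr, two-sided, Benjamini-Hochberg over all genes tested, threshold 0.05) in R 4.3.3; DESeq2 1.42.0 was an alternative, and the fits were tested on simulated data. Gate genes stayed in the fits and out of the counts of calls. The 7 globins are all Hba and Hbb rows but Hbb-bh2. Cells were thinned without replacement to 15000 UMIs with a fixed seed; intervals for shares are exact binomial at 95%. Doublets were kept; Scrublet in scanpy 1.11.5 marked 74 of 1817 cells, removed in an alternative. The visceral endoderm reference had 1% or more Ttr, Apob and Apom UMIs. Groups of 1 tagged sample share a yolk sac by design: deviations of same-numbered sums correlated by 0.004 to 0.119 (endothelium, progenitor), 0.015 to 0.246 (progenitor, lower-globin), 0.183 to 0.260 (erythroid groups) and 0.001 to 0.173 (endothelium, mesoderm). Genes named from a list are among the 3 called with the lowest p in that direction and comparison; for each factor the 3 most correlated genes were ranked and 1 or all 3 are named. Some genes of these lists are not reported here. The members and lists were chosen with earlier results of these data known. Positions are from GENCODE M21 and promoters from RefSeq, matched by symbol.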

Additional observations from a re-analysis of the deposited data

How the results depend on the processing

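Counts of called genes between Fermt3/Plek/Rab27b cells (progenitor gate) and endothelium stayed within 1.5 times under every alternative run. Toward lower-globin cells, 516 calls became 922 without the count filter, 326 with thinned sums, 326 with globin limits of 3 to 6% and 8%, and 136 to 584 when 1 tagged sample was left out, with 2 to 4 factors called. Between the erythroid groups, 1048 calls became 601 with DESeq2, 1752 by library size alone, 317 with thinned sums, 605 without Scrublet calls and 314 to 1078 when 1 tagged sample was left out (0 to 3 factors called); 5 factors were called by library size alone, and 1 each in the fit of all groups and with thinned sums. Against mesoderm, 8 factors in place of 5 were called without the filter and in the fit of all groups. The replicate block changed 1 call, that of Gata1 against mesoderm (1.77), and left the other counts close (3832, 549, 1326 and 3257).

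Signs turned only for factors that did not pass the test (log2 differences). From progenitor-gate to lower-globin cells Gata1 turned to 0.0334 unfiltered and 0.0005 in the fit of all groups and ran from -0.0344 to 0.0092 with 1 tagged sample left out; Tal1 turned to -0.13 by library size, -0.0667 thinned and -0.0321 with other globin limits (left out: -0.0596 to 0.0701); Ikzf1 to -0.028 by library size (left out: -0.18 to 0.4717). Between erythroid groups Gata1 turned to 0.023 with the block, 0.0047 unfiltered, 0.0097 in the fit of all groups and 0.0143 with other globin limits (left out: -0.0799 to 0.0248); Tal1 to -0.12 by library size, -0.0296 thinned and -0.0304 without Scrublet calls; Ikzf1 to -0.0613 by library size and -0.16 thinned; Gfi1b to -0.11 thinned. Between endoderm and mesoderm Gata1 turned to -0.0035 and Klf1 to 0.0155 with the block; left out, Gata1 ran from -0.51 to 1.46, Tal1 from -0.52 to -0.2157, Lmo2 from -0.3489 to 0.4832 and Klf1 from -0.5376 to 0.99. The cause was not tested. Of 60 shares of cells, 40 left their interval when cells were thinned to 30000 UMIs, which also leaves out shallower cells. Cells in both gates were to be left out or moved, but 0 cells met both. Rare factors are limited by depth: Spi1 and Gata2 in erythroid cells rest on 6 to 35 UMIs per group.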

Other observations

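Between the endoderm gate and the low-endoderm limit lay 148 cells with 0.3 to 1% Ttr, Apob and Apom UMIs, which belong to none of the groups. In the 132 of them with globins under 3%, Runx1 stood at 44, 46.1 and 36.4 CPM in tagged samples 1, 2 and 3, and 3.70, 5.59 and 2.06 Runx1 UMIs were counted per Lmo2 UMI. The 4 groups held 33.0%, 44.1% and 62.4% of the kept cells of tagged samples 1, 2 and 3.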
